A study of Homo sapiens with 2 samples.

Results

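The 35 genes described here act in mitosis, the phase of the cell cycle in which duplicated chromosomes are separated and the cell divides. They were taken by symbol from a fixed list of mitotic cyclins, kinases, spindle checkpoint and kinetochore proteins, kinesins and cytokinesis proteins, and all 35 were found among 23375 gene rows. RNA was sequenced from 2 libraries, 1 of the human clear cell renal carcinoma line 786-O with wild-type SETD2 and 1 of its derivative in which SETD2 was knocked out with a zinc finger nuclease. Both were grown in serum-containing RPMI1640 medium without further treatment, and the labels do not say whether the knockout line is a single clone. SETD2 places the trimethyl mark on lysine 36 of histone H3, and 786-O lacks functional VHL. The design asks how gene expression differs between the line with and the line without intact SETD2.

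Entry into mitosis is driven by CDK1 bound to A- and B-type cyclins, together with the Aurora and Polo-like kinases. The spindle checkpoint holds the anaphase-promoting complex inactive until kinetochores are attached to microtubules, after which that complex marks cyclin B and securin for destruction. Transcripts of these genes accumulate late in the cell cycle, largely through promoters bound by the factors NF-Y, MYBL2 and FOXM1 and, in resting cells, by the repressive DREAM complex, so their level in a culture also follows the share of dividing cells. In bulk RNA, fewer dividing cells and less RNA per dividing cell cannot be told apart.

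Fragments assigned to genes numbered 62304084 for the wild type and 50670012 for the knockout, and each member was counted in at least 968 and 846 of them respectively. SETD2 itself had 4908 and 1404 fragments, a ratio of 0.334. PAX8, KRT8, KRT18 and VIM, markers of renal carcinoma cells, were abundant in both libraries. Of the other markers of this list, PAX2 had 751 and 519 fragments and CA9 had 1 and 0. Of the leukocyte, endothelial and fibroblast markers, 5 of 6, 5 of 5 and 3 of 5 were below 1 CPM, the count scaled to library size, in each library, with summed levels of 38.9 and 40.6, 0.527 and 0.538, and 12.2 and 17.6 CPM in the wild-type and knockout library. The exceptions were CD68, COL1A1 and LUM, while CD3E was at 0 in both libraries and PTPRC had 2 and 1 fragments. Gene positions below are those of the files, in hg19. Levels are the authors' RPKM (reads per kilobase of gene model, scaled to library size), which allow genes of different length to be compared. Ratios are knockout over wild type in fragments after TMM scaling (trimmed mean of M values), given with exact 95% intervals that cover counting error only. The RPKM were divided by library totals without TMM scaling, so quotients of RPKM come out slightly higher than these ratios. With 1 library per line there is no replicate check and no p-value, and each ratio compares these libraries rather than the conditions.

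The mitosis genes were lower in the knockout library almost throughout. Of 35 members, 34 had a ratio below 1 with an interval wholly below 1, against 35.2% of the 16894 genes tested. None had an interval wholly above 1, against 34.9% of genes tested, and CDC25C was the 1 member with a ratio above 1. The members' median log2 ratio was -0.55, a ratio of 0.682, against a median of 0.02 over all genes tested. Ratios ran from 0.464 for the kinetochore gene NUF2 to 1.02 for CDC25C, so the differences were mostly smaller than 1.5-fold. The interval lay wholly beyond 1.5-fold for 10 lower members, or 28.6%, against 9.17% of genes tested, and for 0 higher members, against 10.4%. Only NUF2 was lower beyond 2-fold, 1 member against 3.37% of genes tested, and 0 were higher beyond 2-fold, against 5.75%. Among the 8109 tested genes in the members' range of abundance (16.1 to 728 CPM), 50.2% had an interval wholly below 1, 10.7% were lower and 4.92% higher beyond 1.5-fold, and the median was -0.07.

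**Figure D1:**
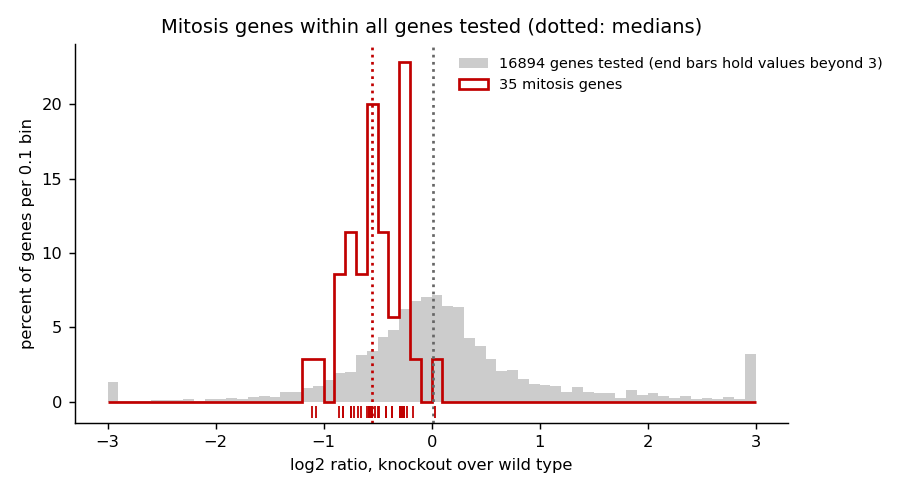
Distribution of log2 ratios (knockout over wild type, x axis) as percent of genes per bin (y axis) for all 16894 genes tested (grey) and the 35 mitosis genes (red line and ticks); dotted lines are the medians. The mitosis genes lie in the left part of the distribution, around a median of -0.55, without reaching its far tail.

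Summed over the 35 genes, the level was 1524 RPKM in the wild-type and 1133 RPKM in the knockout library, and the members took 0.738% and 0.541% of the fragments in genes. CDC20 was the highest member in both libraries and CDC25C the lowest. The order of levels was largely shared: 30 of 35 genes kept their rank within 3 places, and across the 35 genes the log2 RPKM of both libraries had a Pearson r of 0.97 and a Spearman rho of 0.97. The size of the ratio was not tied to the level (r = -0.06 with wild-type log2 RPKM, rho = -0.01) or to the length of the gene model (r = -0.09, rho = -0.04). These correlations are descriptions across 35 genes measured in the same libraries.

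**Figure D2:**
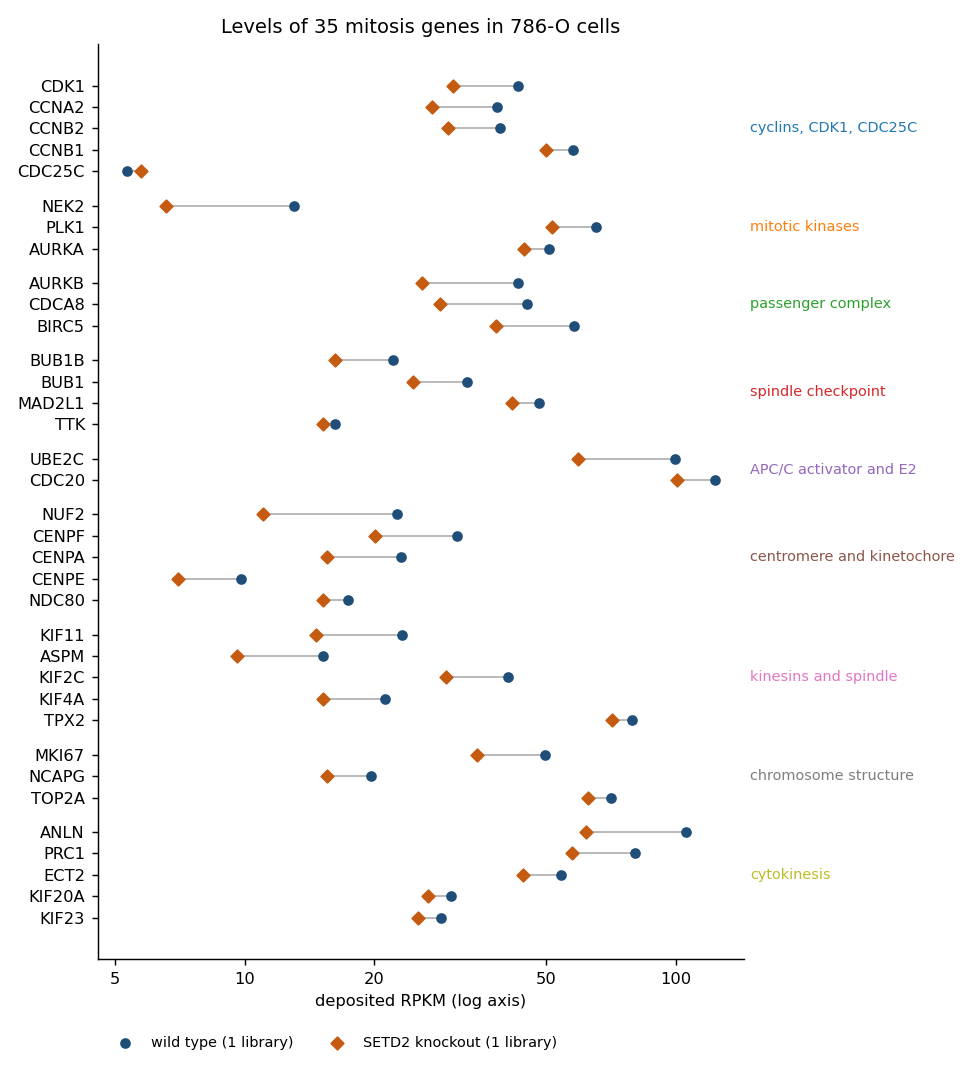
Deposited RPKM (log axis) of each mitosis gene in the wild-type (blue circle) and knockout library (orange diamond), 1 library each, grouped by role. The knockout value lies left of the wild-type value for 34 genes, and the spacing is widest for NUF2 and NEK2.

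Of the 5 genes that drive entry, 4 had intervals wholly below 1 and 0 were called beyond 1.5-fold. With so few genes that count cannot be read against the 9.17% of genes tested that were lower. CDK1, the mitotic cyclin-dependent kinase, was at 43.0 RPKM in the wild-type and 30.4 RPKM in the knockout library, with a ratio of 0.669 (interval 0.649 to 0.689). CCNA2, the cyclin that partners CDK1 before and early in mitosis, had nearly the same ratio, 0.670, at 38.5 and 27.2 RPKM. CCNB2 went from 39.2 to 29.6 RPKM (ratio 0.716) and CCNB1, the main mitotic B-type cyclin, from 57.9 to 49.9 RPKM (ratio 0.816, interval 0.792 to 0.840). The kinase and its cyclins thus lay between 0.669 and 0.816. CDC25C, a phosphatase that activates CDK1, was at 5.34 and 5.75 RPKM, and the interval of its ratio, 0.928 to 1.12, included 1.

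The kinases differed among themselves. NEK2, which separates centrosomes and lies at chr1:211831599-211848972, was at 13.03 RPKM in the wild-type and 6.57 RPKM in the knockout library, a ratio of 0.477 (interval 0.449 to 0.507), the second lowest of the members. PLK1, which acts from entry to cytokinesis, was at 65.3 and 51.6 RPKM (ratio 0.748). Relative to neighbouring genes NEK2 was at 0.640 (interval 0.602 to 0.680) and was not called. That interval overlapped the one of PLK1, which was at 0.655 (0.637 to 0.674). AURKA, the Aurora kinase of the centrosome and spindle poles, was at 50.8 and 44.4 RPKM (ratio 0.827, interval 0.803 to 0.851), and TPX2, which binds and activates it, at 79.1 and 71.3 RPKM (ratio 0.853). AURKA and its activator were thus among the members with the smallest differences, but not relative to neighbouring genes, where AURKA was at 0.752 and TPX2 at 0.727, the latter at the members' median.

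AURKB, the Aurora kinase of the chromosomal passenger complex at chr17:8108049-8113883, was at 43.0 RPKM in the wild-type and 25.8 RPKM in the knockout library, a ratio of 0.568 (interval 0.540 to 0.598). This complex corrects wrong attachments of chromosomes and later acts in cytokinesis. Of its other subunits, CDCA8 and BIRC5 were also lower beyond 1.5-fold: CDCA8, which encodes borealin and lies at chr1:38158159-38175391, was at 45.2 and 28.4 RPKM (ratio 0.595), and BIRC5, which encodes survivin and lies at chr17:76210277-76221716, at 58.2 and 38.2 RPKM (ratio 0.622). The intervals of these 3 genes did not overlap that of AURKA, but relative to neighbouring genes BIRC5 (0.715) was not called and its interval, 0.695 to 0.736, overlapped that of AURKA, 0.730 to 0.774. INCENP, the scaffold subunit of the complex, is not on the member list and was looked up after these values were seen. It was at 15.0 and 10.4 RPKM, with a ratio of 0.656 (interval 0.627 to 0.686) that was not wholly beyond 1.5-fold.

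The 4 spindle checkpoint genes all had intervals wholly below 1 and 0 were called, a count that cannot be read against 9.17% of genes tested with so few genes. BUB1B, which encodes the checkpoint protein BUBR1, was at 22.1 RPKM in the wild-type and 16.2 RPKM in the knockout library (ratio 0.694), and the kinase BUB1 at 32.8 and 24.6 RPKM (ratio 0.710). MAD2L1, whose product binds CDC20 to block anaphase, was at 48.1 and 41.6 RPKM (ratio 0.818). TTK, the kinase that starts checkpoint signalling, had the smallest difference of the members below 1, at 16.2 and 15.2 RPKM with a ratio of 0.888 (interval 0.848 to 0.930). Relative to neighbouring genes TTK was at 0.839, and differences were smaller for CDC20 (0.882), NDC80 (0.883), CDC25C (0.929) and KIF23 (0.936).

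CDC20 and UBE2C act together at the anaphase-promoting complex, the former as activator and the latter as the enzyme that transfers the initial ubiquitin. CDC20 was at 123 RPKM in the wild-type and 101 RPKM in the knockout library (ratio 0.774, interval 0.756 to 0.792). UBE2C, at chr20:44441255-44445596, had 99.7 and 59.5 RPKM, a ratio of 0.565 (interval 0.548 to 0.581). The ubiquitin-transferring enzyme was thus lower beyond 1.5-fold while the activator was not, and their intervals did not overlap.

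In the kinetochore, which ties chromosomes to microtubules, NUF2 and NDC80 differed although their proteins form the rod of a single complex. NUF2, at chr1:163291723-163325553, had 22.5 RPKM in the wild-type and 11.04 RPKM in the knockout library, a ratio of 0.464 (interval 0.437 to 0.493). NDC80 was at 17.4 and 15.2 RPKM, a ratio of 0.826 (interval 0.783 to 0.872). NUF2 was thus the higher of these genes in the wild-type library and the lower in the knockout library. The remaining subunits of the complex, SPC24 and SPC25, were added after these values were seen and had ratios of 0.741 and 0.713. CENPF, a large kinetochore protein of late cell cycle phases at chr1:214776532-214837914, was at 31.2 and 20.04 RPKM (ratio 0.609, interval 0.597 to 0.621) and was the other called gene of this group. CENPA, the histone H3 variant that marks centromeres, was at 23.1 and 15.5 RPKM (ratio 0.636, interval 0.598 to 0.677), and CENPE, a kinetochore motor, at 9.83 and 6.99 RPKM (ratio 0.673).

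Of the motors and spindle assembly proteins, KIF11 and ASPM were called. KIF11, the kinesin that pushes spindle poles apart at chr10:94352825-94415152, was at 23.2 RPKM in the wild-type and 14.6 RPKM in the knockout library (ratio 0.596, interval 0.577 to 0.617). ASPM, a spindle pole protein at chr1:197053257-197115824, was at 15.2 and 9.59 RPKM (ratio 0.597). KIF2C, which removes tubulin from microtubule ends, and KIF4A, a chromosome-bound kinesin, both had a ratio of 0.682, at 40.8 and 29.4 RPKM and at 21.1 and 15.2 RPKM. The interval of KIF11 did not overlap those of KIF2C (0.660 to 0.704) and KIF4A (0.658 to 0.707), and TPX2 lay higher, at 0.853. Relative to neighbouring genes the interval of KIF11 still overlapped neither of these. However, ASPM (0.756) was then not called, and TPX2 (0.727) no longer lay above ASPM or KIF2C (0.765).

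Among proteins of the mitotic chromosome, MKI67, which coats chromosomes and gives the proliferation marker Ki-67, was at 49.7 RPKM in the wild-type and 34.6 RPKM in the knockout library (ratio 0.659, interval 0.650 to 0.668). That interval just reached the 1.5-fold bound of 0.667, so the gene was not called. NCAPG, a condensin subunit, was at 19.6 and 15.5 RPKM (ratio 0.747), and TOP2A, the topoisomerase that untangles sister chromatids, at 70.9 and 62.6 RPKM (ratio 0.836).

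Of the cytokinesis genes, 1 of 5 was called, a count that cannot be read against 9.17% of genes tested with so few genes. ANLN, which encodes the contractile ring scaffold anillin and lies at chr7:36429432-36493400, was at 106 RPKM in the wild-type and 61.9 RPKM in the knockout library, a ratio of 0.554 (interval 0.544 to 0.563). PRC1, which bundles microtubules of the central spindle, was at 80.6 and 57.5 RPKM (ratio 0.675, interval 0.660 to 0.690). ECT2, the exchange factor that activates RHOA at the division plane, was at 54.1 and 44.3 RPKM (ratio 0.774). The kinesins KIF20A and KIF23, which carry passenger proteins to the central spindle and build centralspindlin, were at 30.1 and 26.7 RPKM and at 28.5 and 25.3 RPKM, with ratios of 0.838 and 0.840. The interval of ANLN did not overlap those of the other 4, but relative to neighbouring genes it did (0.716 to 0.741, against 0.740 to 0.789 for KIF20A), and ANLN (0.728) was then level with ECT2 (0.732) and PRC1 (0.735).

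**Figure D3:**
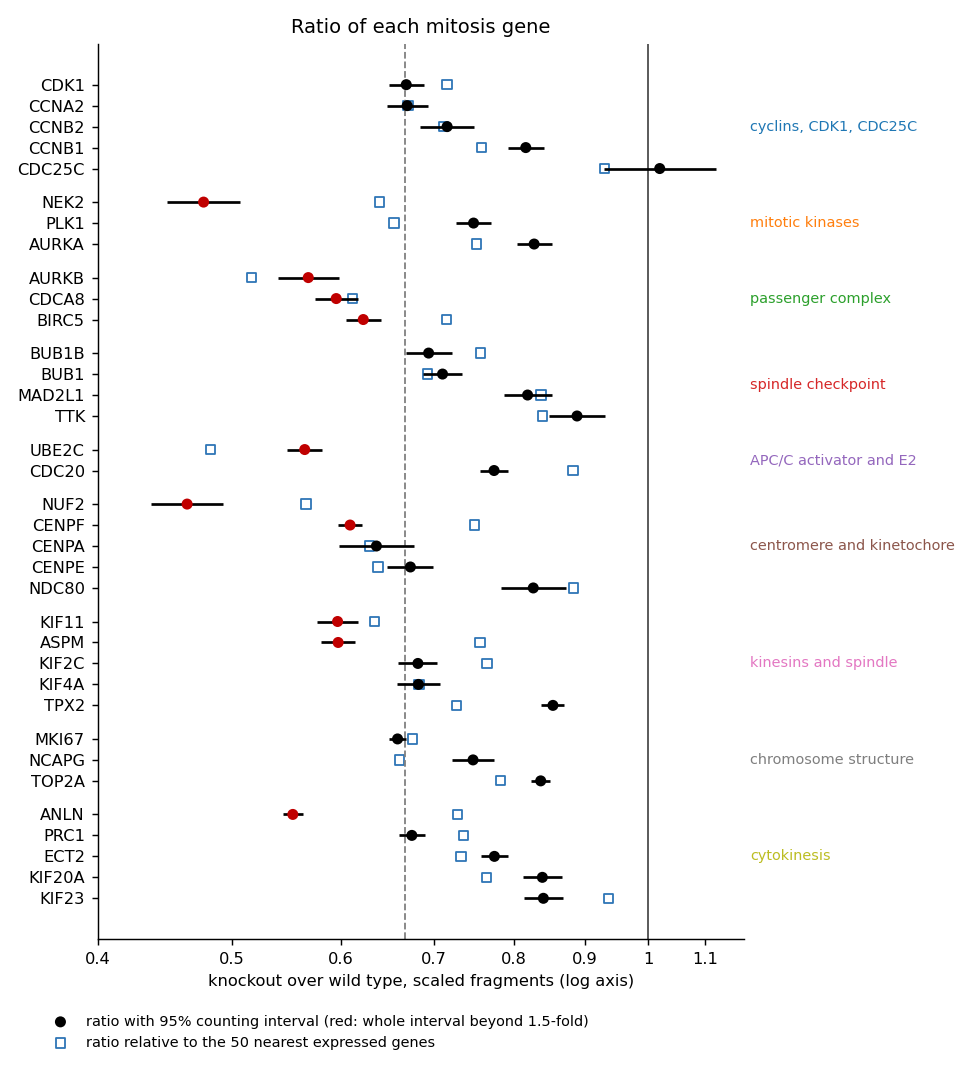
Ratio of knockout to wild type for each mitosis gene (log axis, 1 library per line) with its exact 95% counting interval, and the ratio relative to the 50 nearest expressed genes (open blue squares); lines mark a ratio of 1 and the 1.5-fold bound of 0.667. The 10 genes in red have a whole interval beyond that bound, and all 35 squares lie below 1.

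Some members lie in chromosome stretches whose genes were lower together, and each ratio was therefore also divided by the median ratio of its 50 nearest expressed neighbours. All 35 members had a ratio below their neighbours' median, against 7905 of the 16873 genes tested that have such a median. For CDC25C the interval relative to neighbours, 0.846 to 1.02, included 1. The members' median log2 difference was -0.46, against 0.04 over all genes tested. Relative to neighbours, 6 members were lower beyond 1.5-fold, against 5.81% of genes tested: UBE2C (0.483), AURKB (0.517), NUF2 (0.566), CDCA8 (0.611), KIF11 (0.634) and CENPE (0.638). NEK2, ANLN, CENPF, ASPM and BIRC5, called without this step, were not called with it, at 0.640, 0.728, 0.748, 0.756 and 0.715. Of the 7 members on chromosome 1, 5 were called without this step, against 9.17% of genes tested over all chromosomes. The neighbours' medians of these 7 ran from -0.42 for NEK2 to -0.04 for CDCA8. ANLN on chromosome 7 had a neighbour median of -0.40. Conversely, the neighbours of UBE2C, AURKA and TPX2 on chromosome 20 had medians of 0.14 to 0.23. Across the 35 genes the log2 ratio and the neighbours' median had a Pearson r of 0.57 (rho 0.49), where members of a chromosome share neighbours.

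The spans of 7 members overlap another gene row. These rows include KIAA0895 (ANLN), CDC23 (KIF20A), LCORL (NCAPG), EXOSC9 (CCNA2), ERN2 (PLK1), PAK6 (BUB1B) and RGPD5 (BUB1). Only whole spans were compared and strandedness is not given, so whether reads are shared between these rows was not tested. Among the 28 other members, 9 were lower beyond 1.5-fold, against 9.17% of genes tested, and the median was -0.56. GENCODE 29 names pseudogenes of 8 members, UBE2C and NEK2 among them, whose reads may be shared with the parent gene.

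Promoters of mitosis genes are known for the cell cycle genes homology region (CHR, TTTGAA), to which MYBL2, FOXM1 and DREAM complexes attach, and for CCAAT boxes bound by NF-Y. RefSeq (GRCh38.p14) promoters, 250 bases before to 50 after each start, were matched by symbol for 30 members with 36 promoters. The 5 others are TTK, AURKA, TPX2, BIRC5 and UBE2C. On either strand, TTTGAA was found in 25 of 36 member promoters (69.4%, exact 95% interval 51.9% to 83.7%), against 15.2% of all 35116 promoters. CCAAT was found in 26 (72.2%), against 34.6%, and both together in 19 (52.8%), against 5.90%. The variant TTCGAA was in 2 (5.56%), against 1.45%, and the E2F motifs TTTGGCGC or TTTCCCGC in 1 (2.78%), against 2.27%. The interval treats promoters as independent, but 4 members have more than 1, and overlapping promoters can hold the same site. Counted by gene, TTTGAA was in 22 of 30 members (73.3%), CCAAT in 23 (76.7%) and both in 17 (56.7%). Where the letters TTTGAATTGG occur, as in CDCA8 and MKI67, TTTGAA and a reversed CCAAT box share a base.

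The stretch before the start is shown for 9 members with ratios from 0.464 (NUF2) to 0.816 (CCNB1), chosen for their motifs, with TTTGAA and CCAAT on either strand in capitals. CCNB2, PLK1, PRC1 and MKI67 carry both motifs, CDCA8 has them joined, ANLN has TTTGAA on both strands, CCNB1 and NEK2 have only CCAAT boxes here, and NUF2, the lowest member, has neither in the stretch shown, its TTTGAA lying 16 bases after the start. CCAAT on the other strand reads ATTGG, and TTTGAA reads TTCAAA.
CCNB2, chr15:59105006-59105145, plus strand: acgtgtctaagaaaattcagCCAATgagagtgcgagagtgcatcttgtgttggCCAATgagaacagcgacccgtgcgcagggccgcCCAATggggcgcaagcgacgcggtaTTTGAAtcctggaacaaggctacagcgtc
PLK1, chr16:23678749-23678888, plus strand: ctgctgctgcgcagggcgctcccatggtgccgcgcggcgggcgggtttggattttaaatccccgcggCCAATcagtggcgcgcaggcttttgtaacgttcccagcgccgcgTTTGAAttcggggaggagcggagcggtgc
PRC1, chr15:90994536-90994675, minus strand: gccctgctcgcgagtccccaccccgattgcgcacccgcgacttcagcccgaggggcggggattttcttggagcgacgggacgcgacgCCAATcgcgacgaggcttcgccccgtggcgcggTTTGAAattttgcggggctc
MKI67, chr10:128126424-128126563, minus strand: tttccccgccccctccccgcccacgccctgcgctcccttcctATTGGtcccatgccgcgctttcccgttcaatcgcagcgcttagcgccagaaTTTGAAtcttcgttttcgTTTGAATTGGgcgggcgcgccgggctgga
CDCA8, chr1:37692376-37692515, plus strand: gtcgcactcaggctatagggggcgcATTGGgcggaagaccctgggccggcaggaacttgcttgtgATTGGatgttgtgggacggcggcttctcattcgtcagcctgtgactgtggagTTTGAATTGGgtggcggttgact
ANLN, chr7:36389722-36389861, plus strand: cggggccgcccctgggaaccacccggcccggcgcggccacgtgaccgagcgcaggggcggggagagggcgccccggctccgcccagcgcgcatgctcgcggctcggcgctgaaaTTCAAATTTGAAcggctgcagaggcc
CCNB1, chr5:69167010-69167149, plus strand: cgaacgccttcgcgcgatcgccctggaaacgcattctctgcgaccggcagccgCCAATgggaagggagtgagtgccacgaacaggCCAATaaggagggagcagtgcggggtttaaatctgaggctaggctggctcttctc
NEK2, chr1:211675622-211675761, minus strand: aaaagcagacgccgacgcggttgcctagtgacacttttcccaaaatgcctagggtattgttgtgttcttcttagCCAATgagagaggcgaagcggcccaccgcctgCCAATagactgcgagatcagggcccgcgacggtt
NUF2, chr1:163321814-163321953, plus strand: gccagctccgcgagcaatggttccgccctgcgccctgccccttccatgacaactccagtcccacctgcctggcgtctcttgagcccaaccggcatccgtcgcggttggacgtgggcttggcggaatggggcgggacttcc

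Members with and without these letters had like ratios. The median log2 ratio was -0.54 for the 22 member genes with TTTGAA and -0.56 for the 8 without, and it was -0.55 both for the 23 with CCAAT and for the 7 without. Over the 11122 tested genes with a promoter in the table, those with both motifs had a median of -0.05 (674 genes) and the rest of 0.003 (10448 genes), and 11.9% and 9.77% were lower beyond 1.5-fold. These 674 genes include 17 members. A match is a description of the letters, not of a bound site.

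**Figure D4:**
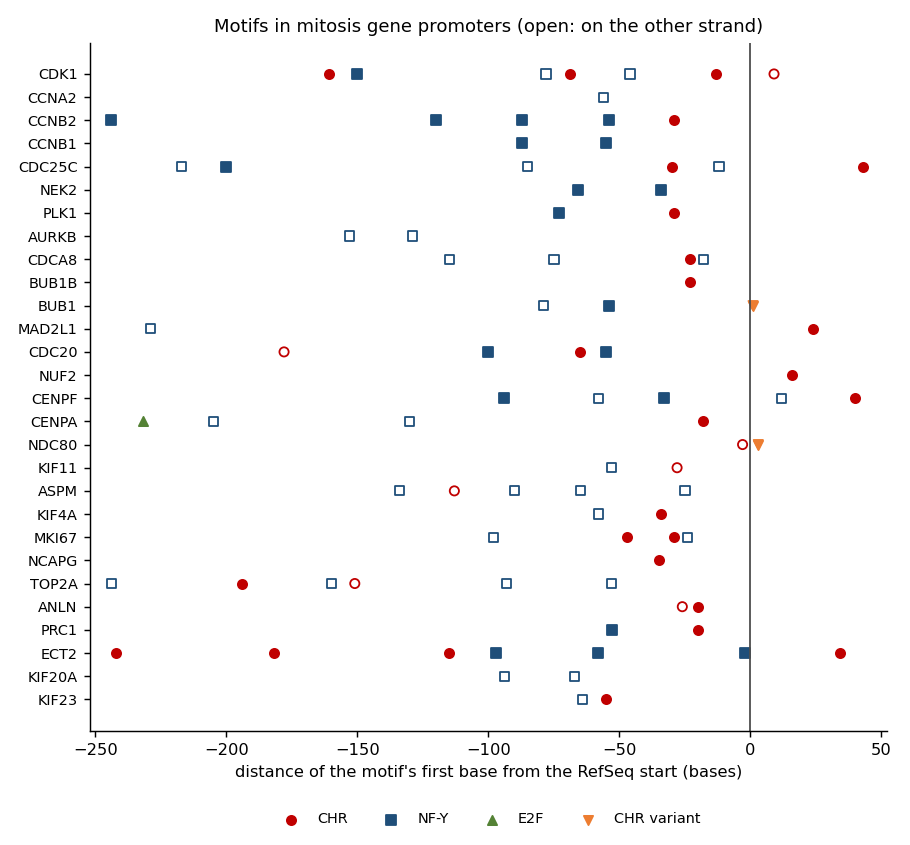
Position of motif matches in the promoters of the 28 mitosis genes with at least 1 match: distance of the motif's leading base from the RefSeq start in bases (x axis), with CHR for TTTGAA, CHR variant for TTCGAA, NF-Y for CCAAT and E2F for both E2F motifs, filled on the gene's strand and open on the other. Promoters of the same gene share a row, and 26 of 33 TTTGAA matches are on the gene's strand. A site within overlapping promoters of a gene is counted in each.

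Other genes of the same processes were taken from 9 lists of 143 genes, of which 142 were measured. Of these, 36 (25.4%) were lower and 1 (0.704%) higher beyond 1.5-fold, beside 9.17% and 10.4% of genes tested, with a median log2 ratio of -0.37. Lists of few genes cannot be read singly against these shares. Relative to neighbouring genes, 113 of the 142 lay below and 29 above, with a median of -0.35. Of all genes tested, 7905 lay below and 8968 above, with a median of 0.04. The 7 other condensin subunits, which fold mitotic chromosomes, had the lowest median, -0.77, and 5 of them were lower. NCAPG2 and NCAPD3 of condensin II had ratios of 0.425 and 0.456, and NCAPH and SMC4 of condensin I and of both complexes had 0.545 and 0.596. SMC2, looked up after the values were seen, had 0.922. NCAPG2 lies on chromosome 7, where its neighbours had a median of -0.65. NCAPD2, named after its value was seen, was also lower (0.585), among neighbours with a median of -0.82. Relative to these neighbours the log2 ratio of NCAPD2 was 0.05. The neighbours of NCAPD3, NCAPH and SMC4 had medians of -0.18, 0.08 and -0.02.

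Of 32 other centromere and kinetochore genes, 10 (31.25%) were lower and 0 higher (median -0.51), beside 9.17% and 10.4% of genes tested. SKA1, which couples kinetochores to microtubules, had a ratio of 0.463, KNTC1 of the checkpoint's RZZ complex 0.509 and the inner kinetochore gene CENPK 0.521. The neighbours of SKA1, KNTC1 and CENPK had median log2 ratios of 0.13, -0.37 and 0.06. ZWINT, the most abundant of the list at 61.9 and 45.3 RPKM, had a ratio of 0.692 and was not called. Of 20 other kinesins and spindle proteins, 5 (25%) were lower and 0 higher (median -0.46), beside the same 9.17% and 10.4%. The lowest were NEDD1, which recruits gamma-tubulin, at 0.541, KIF20B at 0.551 and KIF14 at 0.558. The neighbours of NEDD1, KIF20B and KIF14 had medians of -0.50, -0.03 and -0.36. TACC3, the most abundant, had a ratio of 0.661 and was not called. Of 6 further checkpoint and passenger genes, TRIP13, an ATPase that remodels MAD2, was the 1 lower gene (0.562). The list has too few genes to read that count against 9.17%. The abundant BUB3 had 0.789 (list median -0.36).

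Cohesin is the ring that holds sister chromatids. Of 14 genes of cohesin and its regulators, 4 (28.6%) were lower and 0 higher (median -0.38), beside 9.17% and 10.4% of genes tested. The lowest were the cohesin protector SGO1, listed as SGOL1, at 0.560, CDCA5, which encodes sororin, at 0.572 and PTTG1, which encodes securin, at 0.613. The neighbours of SGO1, CDCA5 and PTTG1 had median log2 ratios of 0.08, 0.04 and 0.17. The core subunit RAD21, the most abundant, had 0.816. Of 16 measured subunits, inhibitors and enzymes of the anaphase-promoting complex, 3 (18.75%) were lower and 0 higher (median -0.18), beside the same 9.17% and 10.4%. UBE2S, which extends the ubiquitin chains started by UBE2C, was at 97.8 and 37.5 RPKM, a ratio of 0.363 (interval 0.349 to 0.378) and the lowest of all mitosis genes examined. ANAPC5 and ANAPC11 had ratios of 0.575 and 0.623. The neighbours of UBE2S, ANAPC5 and ANAPC11 had median log2 ratios of 0.22, -0.32 and -0.19.

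Of 10 other cytokinesis genes, 3 (30%) were lower and 0 higher (median -0.26), beside 9.17% and 10.4% of genes tested. CEP55, which recruits the abscission machinery, had a ratio of 0.467. RACGAP1, the partner of KIF23 in centralspindlin, had 0.571, and the kinase CIT 0.610. The neighbours of CEP55, RACGAP1 and CIT had median log2 ratios of -0.12, -0.48 and -0.37. The abundant RHOA, which builds the contractile ring, had 0.791. Of 15 entry kinases, phosphatases and inhibitors, 3 (20%) were lower and 1 (6.67%) higher (median -0.36), beside the same 9.17% and 10.4%. MASTL, which restrains the phosphatase opposing CDK1, had 0.460, CDK2 0.516 and PKMYT1, an inhibitory kinase of CDK1, 0.611. In contrast, NEK9 had 1.66 and the abundant NEK6 1.49. The neighbours of MASTL, CDK2, PKMYT1 and NEK9 had median log2 ratios of -0.19, -0.38, 0.21 and 0.05.

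Among 22 transcription factors of mitosis genes, 2 (9.09%) were lower and 0 higher, with a median of -0.20, so the share of lower genes was that of all genes tested (9.17%). FOXM1, an activator of these promoters, was at 33.2 RPKM in the wild-type and 14.7 RPKM in the knockout library, a ratio of 0.419 (interval 0.404 to 0.435). It lies on chromosome 12 among neighbours with a median log2 ratio of -0.84, and relative to them its log2 ratio was -0.42. RBL1, which encodes the pocket protein p107, had a ratio of 0.548. MYBL2, the most abundant at 68.5 and 58.2 RPKM, had 0.804, and LIN54, the DNA-binding subunit of DREAM that contacts the CHR, 0.780, so neither was called.

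**Figure D5:**
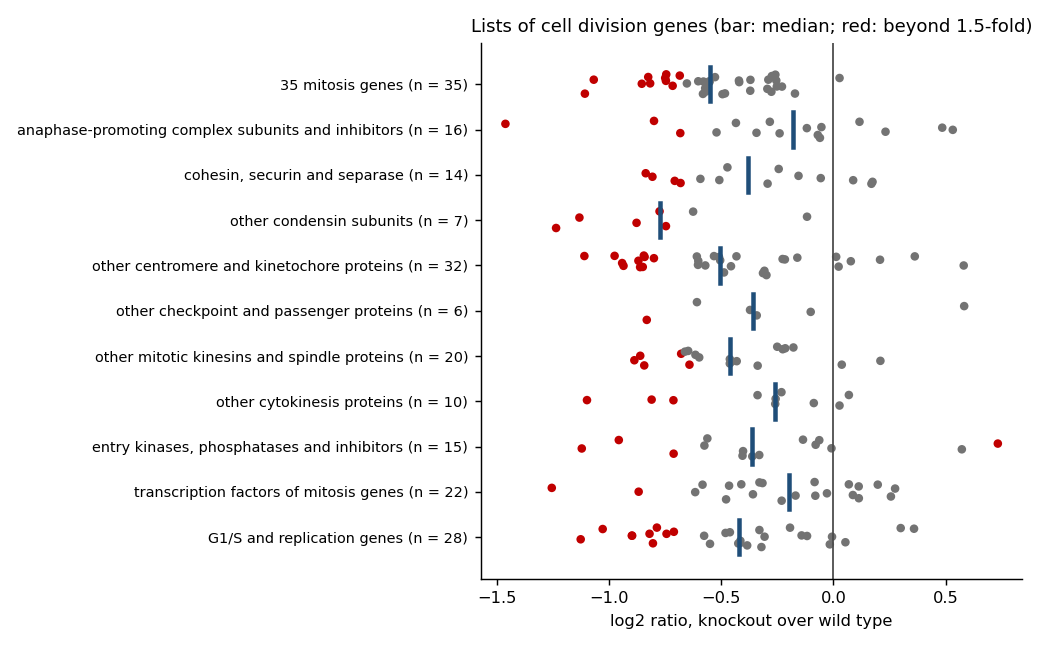
Log2 ratio (x axis, knockout over wild type, 1 library each) of every measured gene in the mitosis lists and in the G1/S and replication list, with the list's median as a blue bar and genes with a whole interval beyond 1.5-fold in red. All list medians lie below 0, from -0.77 for the other condensin subunits to -0.18 for the anaphase-promoting complex list.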

How the data were processed

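RNA sequencing of 2 libraries was used, 1 per group by its labels. For each gene the authors deposited a count and RPKM, per the file headers. TopHat2 2.0.6, Bowtie and HTSeq were named with hg19 by the submitters' processing notes. No source used here gives their settings, the annotation or strandedness. All counts were even, so they were taken as 2 reads per fragment and divided by 2 to give fragments. The tables held 23398 rows, and 23 Y rows of genes that also have an X row were dropped. Libraries were scaled by TMM in edgeR 4.0.16 (R 4.3.3) on the 16894 genes whose reads summed to at least 10. Ratios carry a 95% Clopper-Pearson interval conditional on their sum, and 0.5 fragments were added for log2 ratios. A gene was called when its whole interval lay beyond 1.5-fold. Neighbours were the 50 nearest genes with at least 100 reads. Counting intervals do not cover differences between cultures. The interval was tested on simulated counts that held counting error only, which says nothing about differences between cultures. Members, lists and rules were chosen with earlier results of these data known. Named genes were SETD2, all members, of each other list at most 3 called genes per direction and the most abundant, and FOXM1, MYBL2 and LIN54. ANAPC15 was not found. Alternatives were other scalings (total count, upper quartile, DESeq2 1.42.0 size factors), minimums of 1 and 50 reads, neighbours, a 99% interval, 2-fold, undivided counts, RPKM, the mean, 2 added fragments and a shorter promoter window. Leaving out genes with overlaps was added after seeing the data.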

Additional observations from a re-analysis of the deposited data

How the results depend on the processing

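The count of 10 lower members was 9 to 11 under the other scalings. Of genes tested, 7.55%, 7.59% and 9.39% were lower beyond 1.5-fold under total count, upper quartile and DESeq2 scaling. The members' count was 10 with minimums of 1 or 50 reads or a 99% interval, and 12 with undivided counts or without an interval. It was 6 relative to neighbouring genes and 1 at 2-fold, while 0 members were higher under any of these settings. The median log2 ratio of -0.55 was -0.48 with total count and with upper quartile scaling. Over all genes tested the median moved too, from 0.02 to 0.09 under each of these scalings. The members' median was -0.47 as a ratio of RPKM and -0.46 relative to neighbouring genes. With DESeq2 size factors, the read minimums, 2 added fragments and as a mean, it stayed between -0.60 and -0.50. These limits are the medians of the members' lower and upper interval bounds, not the counting error of a median over 35 genes. Relative to neighbouring genes the ratios of 27 of 35 members left their own counting interval, as did 30 of 35 under total count or upper quartile scaling, and no called member changed direction. In the 250 bases before the start alone, TTCGAA was in 0 member promoters, or 0% (exact upper bound 9.74%), while the shares of the other motifs stayed within their intervals. Relative to neighbours CDC25C, not called, moved from 1.02 to 0.929. The half-widths of the members' counting intervals were at most 9.35% of the ratio. No paired analysis was possible because each group held 1 library, and no replicate could be left out.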

Other observations

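Genes of the phases before mitosis were also examined. Of 28 genes of G1/S and DNA replication, 9 (32.1%) were lower and 0 higher beyond 1.5-fold, against 9.17% and 10.4% of genes tested, with a median log2 ratio of -0.42. The lowest were MCM7 of the helicase that unwinds DNA (ratio 0.458, and the most abundant gene of the list), MCM10, which activates it (0.490), and UNG, a uracil glycosylase (0.537). Their neighbours had medians of -0.74, -0.54 and -0.52. CCNE1 and CCNE2, the E-type cyclins that drive S phase entry, were singled out after their values were seen, with ratios of 1.23 (interval 1.12 to 1.36) and 1.28 (1.22 to 1.35).

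Of 11 measured G1 cyclins, kinases and CDK inhibitors, 4 (36.4%) were lower and 3 (27.3%) higher, against the same 9.17% and 10.4%, with a median log2 ratio of -0.18 and a mean of 0.41, which differ in sign. The list's CDK inhibitors went both ways, with 3 higher and 2 lower. CDKN1A, which encodes p21, was at 47.7 RPKM in the wild-type and 120 RPKM in the knockout library, a ratio of 2.38 (interval 2.32 to 2.44). CDKN1C had 11 and 91 fragments, a ratio of 9.65 (interval 5.15 to 20.01), and CDKN2A 1 and 20 fragments, a ratio of 23.3 (interval 3.73 to 967). In the other direction, the inhibitors CDKN2D and CDKN1B, the latter named after its value was seen, had ratios of 0.481 and 0.582 (neighbours of CDKN1B had a median of -0.73), and the G1 kinases CDK4 and CDK6 had 0.511 and 0.532, next to neighbours with medians of -0.42 and -0.76. CCND1, the most abundant gene of this list at 96.3 and 82.5 RPKM, had a ratio of 0.811 and was not called.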
